A study of Mus musculus with 9 samples.

Results

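Ribosomal proteins of the cytosol assemble with ribosomal RNA into the small and the large subunit of the ribosome, and most of the genes encoding them are transcribed at high levels in every cell. Their mRNAs are short and abundant, and many begin with a tract of pyrimidines, the terminal oligopyrimidine motif, through which the mTOR pathway controls their translation. Because a ribosome holds 1 copy of most of these proteins, their genes are known for moving together, and each has spawned many processed pseudogenes, which complicates the counting of their reads.

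The genes were chosen by name, as Rps or Rpl followed by a number and, where present, the letter a or x, with Rpsa, Rplp0, Rplp1 and Rplp2 added. This rule took 76 of the 55247 genes in the table, 30 of the small and 46 of the large subunit. Of these, 74 reached the minimum of 100 counts in at least 1 library that the 13200 tested genes share, 29 of the small and 45 of the large subunit. Rps10 (33 to 71 counts per library) and Rpl24 (9 to 22 counts) did not. Another annotated gene on the same strand, RPS10-NUDT3 and Gm28037, covers 20.6% and 47.0% of their exonic bases. The part of this overlap in their counts was not tested, and Rpl13a reached the minimum with 35.4% covered. The rule misses some further proteins of the same particle, among them Fau, Rps3a1 and Rack1, which are described apart.

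RNA was sequenced from whole dorsal root ganglia (DRGs) of E18.5 mouse embryos, in 3 genotypes with 3 libraries each. WT embryos are the wild type group of the labels. Isl1Cre/+ embryos carried Cre recombinase in 1 copy of Isl1, a gene of postmitotic sensory neurons. Isl1Cre/+::Meis2LoxP/LoxP embryos, called mutant here, carried that allele too, together with LoxP sites around an exon of both copies of Meis2, so that Cre is made where Isl1 is expressed. Whole ganglia also hold glia, vessels and connective tissue, and Meis2 was not measured by cell type. Sexes, litters and pooling of embryos were not given by the labels. Libraries held 23854607 to 29103444 counts. Meis2, counted over the whole gene, had 2746 to 2919 counts in WT, 2537 to 2857 in Isl1Cre/+ and 1004 to 1084 in mutant libraries. All 7 sensory neuron markers were detected in each library (summed level 4847 to 7231 cpm, counts scaled to a common library size by the TMM method), while the 6 spinal cord markers summed to at most 5.13 cpm. WT library 1 and mutant library 2 stood apart from the rest, with median rank correlations to the other libraries of 0.981 and 0.979 across genes, against 0.991 to 0.995 for the other 7, and for each comparison the counts and the median over the ribosomal protein genes are also given below without them.

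The sequences around the transcription starts show a feature that many of these genes have and that the name rule did not use. RefSeq starts on GRCm38.p6 were found for 56 of the 76 genes, and the 50 bases on either side of each were searched on the gene's own annotated strand. Of the 56, 41 (73.2%) held an unbroken run of at least 10 pyrimidines, against 18.1% of all 32851 starts, with a median longest run of 11 against 7 bases. The letters CTTTC, which are all pyrimidines and so overlap with such runs in many genes, were found in 31 (55.4%) of the genes and in 12.8% of all starts. On the opposite strand the same letters were found in 5 (8.93%) of the genes and 12.1% of all starts. The windows below are those of the gene with the clearest difference between genotypes (Rps21), of Rpl35 and Rpl38, which had the third highest and the lowest fold change in the comparison of the mutant with Isl1Cre/+, of 2 of the most abundant genes (Rps15 and Rpl4), of the longest run (Rpl7a) and, for contrast, of Rplp0 and Rps28, which have short runs. Capitals mark the longest run of pyrimidines, and each window is written 5′ to 3′ on the gene's own annotated strand.

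Rps21, chr2:180257399-180257428, plus strand: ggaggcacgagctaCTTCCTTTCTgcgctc
Rpl35, chr2:39005115-39005144, minus strand: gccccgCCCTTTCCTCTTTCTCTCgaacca
Rpl38, chr11:114668568-114668597, plus strand: ggaagcctcgTTCTTTCCCCgttctcttcg
Rps15, chr10:80292446-80292475, plus strand: gcagcccgtaCTTCCTTTTCCgagtaaccg
Rpl4, chr9:64173405-64173434, plus strand: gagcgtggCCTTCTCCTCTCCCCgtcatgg
Rpl7a, chr2:26910788-26910817, plus strand: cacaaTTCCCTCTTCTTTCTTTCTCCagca
Rplp0, chr5:115559466-115559495, plus strand: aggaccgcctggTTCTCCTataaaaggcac
Rps28, chr17:33824567-33824596, minus strand: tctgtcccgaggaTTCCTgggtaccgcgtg

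The run of Rps21 has 10 bases and begins at the 35th base after its annotated start. The runs of Rpl35 and Rpl7a have 18 and 21 bases, and those of Rplp0 and Rps28 have 7 and 5. A run is a description of these letters and no evidence of regulation.

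Together, the ribosomal protein genes took 1.27% to 1.64% of all counts. WT libraries gave 1.57%, 1.27% and 1.30%, Isl1Cre/+ libraries 1.38%, 1.38% and 1.28%, and mutant libraries 1.34%, 1.64% and 1.34%. The shares of the 3 genotypes overlapped, and the highest values belonged to WT library 1 and mutant library 2. The means were 1.38% ± 0.164 in WT, 1.35% ± 0.0599 in Isl1Cre/+ and 1.44% ± 0.175 in mutant libraries (SD, n = 3 each).

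Levels between genes were compared per kilobase of annotated exons. The highest were those of Rps15, a protein of the small subunit (436 ± 94.5 cpm per kb, SD over the 9 libraries), Rplp1, an acidic protein of the stalk of the large subunit (423 ± 53.7 cpm per kb), Rpl38 (361 ± 75.3 cpm per kb), Rpl4 (356 ± 29.3 cpm per kb) and Rpl32 (279 ± 42.1 cpm per kb). Rps15 and Rplp1 differed by less than their SD over the libraries, as did Rpl38 and Rpl4. The lowest among tested genes were Rps15a (28.8 ± 3.01 cpm per kb), Rps19 (27.5 ± 4.09), Rpl35a (20.4 ± 1.93), Rpl18 (12.1 ± 0.852) and Rpl13a (11.1 ± 1.72). This order depends on the length used, at both ends. Per kb of the longest coding transcript, Rpl41 came first (524 cpm per kb), followed by Rps15 (480) and Rps26 (478), and Rpl32 (297) fell to rank 20. Per kb of the principal transcript, Rpl41 (560) was again above Rps15 (549). At the low end, Rps19 had 100.3 and Rpl35a 139 cpm per kb of the longest coding transcript, and Rpl18 had 16.4 per kb of that transcript but 72.0 per kb of the principal one. Rpl13a had 22.4 cpm per kb of either and Rps15a 34.8 and 35.2, so these were low by each length. Rpl41 and Rps26 were named after their values were seen. Rpl13a had 503 to 843 counts per library, and 35.4% of its exonic bases overlap other genes, Gm45713 among them.

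**Figure D1:**
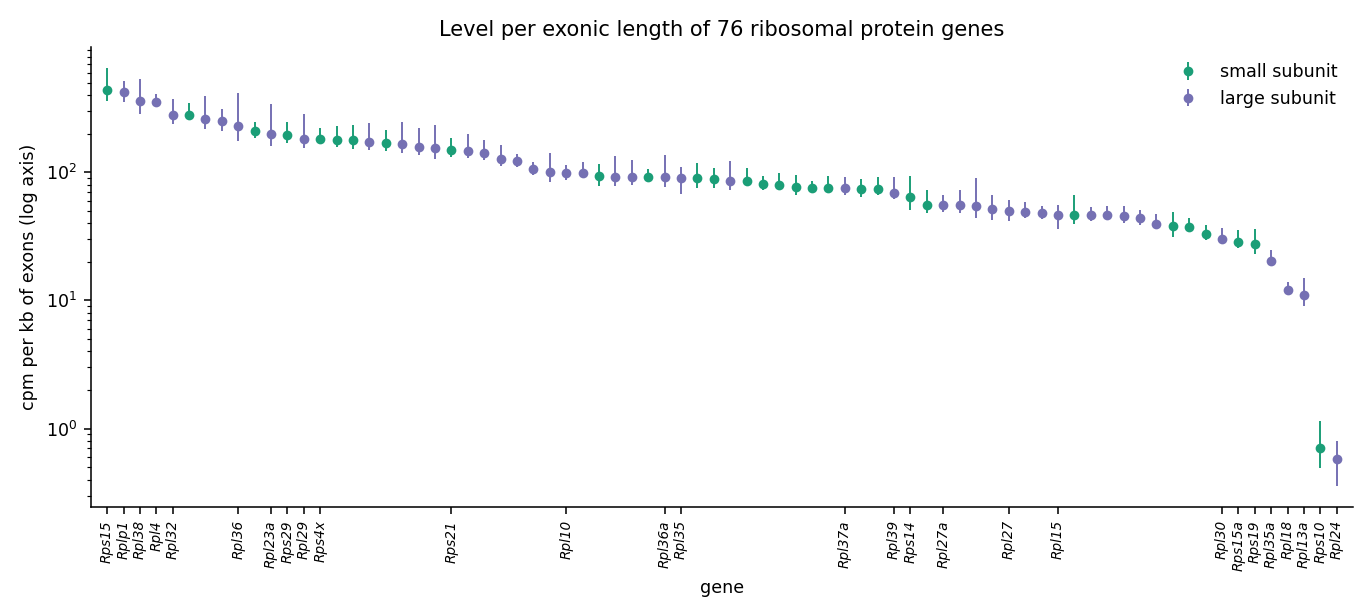
Mean level of each of the 76 ribosomal protein genes over the 9 libraries, in cpm per kb of annotated exons on a log axis, ordered from highest to lowest. Bars run from the lowest to the highest library, colours give the subunit, and the genes named by the rule for levels, differences or position are labelled. All but Rps10 and Rpl24 lay between 11.1 (Rpl13a) and 436 cpm per kb (Rps15).

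Reads of these genes can be hard to assign. In the mRNA of 74 of the 76 genes, at least 1 stretch of 84 bases, the read length, occurred identically in transcripts annotated to another gene, and in 72 of the 76 that other gene included a pseudogene. The share of such stretches had a median of 45.6% and exceeded 50% in 30 genes. Levels between these genes are therefore uncertain. Across the 74 tested genes, which share the same libraries, the level per kb and the share of such stretches had a Spearman's rho of -0.18, and the 5 genes with the lowest levels shared 3.8% (Rps15a), 37.8% (Rps19), 40.7% (Rpl35a), 61.9% (Rpl18) and 55.9% (Rpl13a). Rps21 shared 2.3% of its stretches and overlapped no other gene.

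The 3 stalk proteins of the large subunit differed in level but not in which libraries were high. Rplp0, their anchor on the ribosome, had 516, 359 and 381 cpm in WT, 408, 406 and 349 cpm in Isl1Cre/+ and 384, 509 and 407 cpm in mutant libraries. Rplp1 had 259, 186 and 192 cpm in WT, 213, 201 and 177 cpm in Isl1Cre/+ and 216, 246 and 209 cpm in mutant libraries. Rplp2 had 259, 164 and 168 cpm in WT, 194, 181 and 168 cpm in Isl1Cre/+ and 183, 219 and 180 cpm in mutant libraries. For each of them the genotypes overlapped, and WT library 1 was the highest of the 9, followed by mutant library 2. Per kb of exons they had 249 ± 36.2, 423 ± 53.7 and 92.0 ± 14.8 cpm per kb (SD over the 9 libraries).

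The levels of the ribosomal protein genes moved together from library to library. In WT and in the mutant, but not in Isl1Cre/+, libraries of the same genotype differed by more than the genotype means did. Each gene's log2(cpm + 0.5) was set against its own mean over the 9 libraries. The median deviation of the 74 genes was 0.25 in WT library 1 and 0.23 in mutant library 2, against -0.15 and -0.12 in the other WT libraries, -0.019, -0.016 and -0.12 in the Isl1Cre/+ libraries and 0.011 and -0.076 in the other mutant libraries. The genotype means of these medians were -0.0053 ± 0.220 in WT, -0.051 ± 0.0579 in Isl1Cre/+ and 0.055 ± 0.157 in mutant libraries (SD, n = 3 each). In mutant library 2 all 74 genes lay above their own mean, and in WT library 1 66 did. The highest of the 9 libraries was WT library 1 for 38 genes, mutant library 2 for 34 and mutant library 1 for 2 (Rpl27 and Rpl35).

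**Figure D2:**
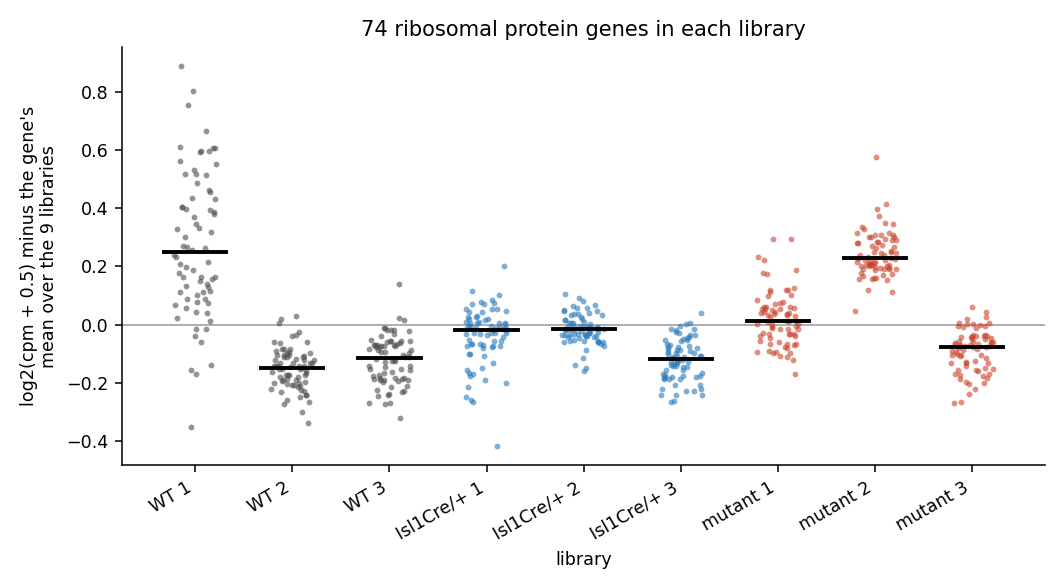
Deviation of each of the 74 tested ribosomal protein genes from its own mean over the 9 libraries, in log2(cpm + 0.5), by library. Points are genes, coloured by genotype, and black bars are medians. WT library 1 (0.25) and mutant library 2 (0.23) lie above the other 7 libraries, and the points of WT library 1 are the most spread.

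The pair of high libraries differed in how uniform the step was. In mutant library 2 the deviations had an SD of 0.0774 over the genes and ran from 0.045 (Rpl29) to 0.58 (Rps14), and in WT library 1 they had an SD of 0.246 and ran from -0.35 (Rpl15) to 0.89 (Rpl36). Against the mean of the other WT libraries, WT library 1 was higher by a median of 0.36 on the log2 scale over the ribosomal protein genes and 0.040 over all other tested genes. It was highest of its genotype for 69 of the 74 genes and for 48.5% of other genes. Rpl36, Rpl23a and Rpl21 rose most there (1.19, 1.03 and 1.01), while Rpl15 and Rpl10 were lower there than in the other WT libraries (-0.43 and -0.17). Against the mean of the other mutant libraries, mutant library 2 was higher by a median of 0.27 over the ribosomal protein genes and -0.00092 over all others, and highest of its genotype for 71 of 74 against 37.0%. Rps14 led there (0.62), followed by Rpl39 (0.45). Rpl21 and Rpl39 were named after their values were seen, as were Rpl15 and Rpl10 for this pattern.

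The steps were also set against gene length. The 24 ribosomal protein mRNAs under 600 bases were higher in WT library 1 by a median of 0.54, and the 50 longer ones by 0.33. In mutant library 2 the same medians were 0.29 and 0.25. Over all 74 genes, which share the same libraries, the steps had a Spearman's rho with mRNA length of only -0.13 and -0.033. Other tested genes with up to 1 kb of exons (279 genes) deviated by a median of 0.34 in WT library 1 and 0.10 in mutant library 2, and those over 4 kb (7874 genes) by -0.012 and -0.023. Most ribosomal protein genes fall in the classes of 1 to 2 kb (31 genes) and 2 to 4 kb (28), with 9 up to 1 kb and 6 over 4 kb. Other genes of 1 to 2 kb and 2 to 4 kb deviated by medians of 0.18 and 0.075 in WT library 1 and 0.044 and 0.021 in mutant library 2. The medians of the ribosomal protein genes (0.25 and 0.23) lay above these in both libraries, and below the class of up to 1 kb in WT library 1.

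**Figure D3:**
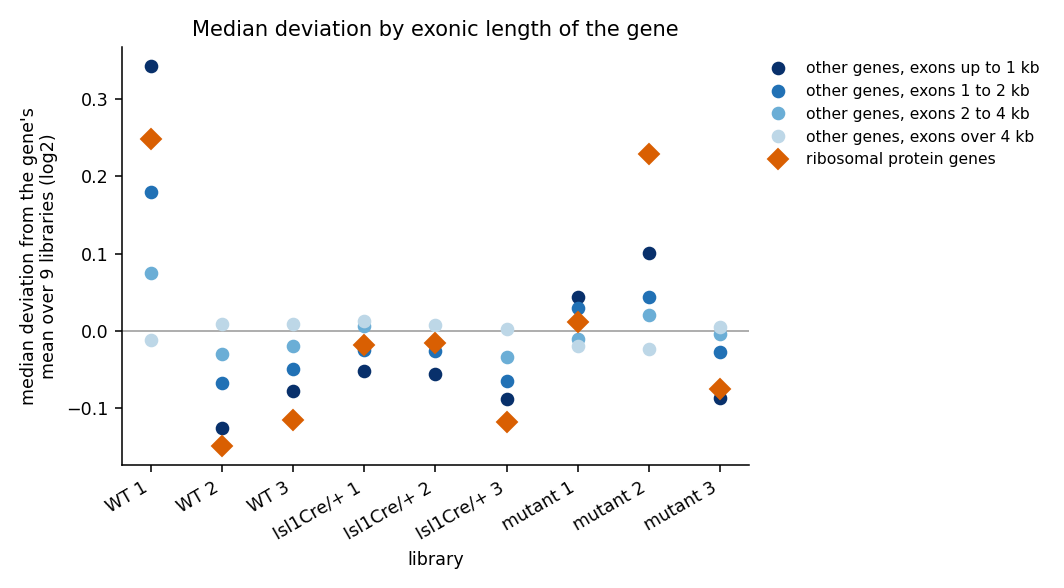
Median deviation from each gene's own mean over the 9 libraries, in log2(cpm + 0.5), for the ribosomal protein genes (diamonds) and for other tested genes by length of their exons (circles). In WT library 1 genes of up to 1 kb deviate most (0.34), and in mutant library 2 the ribosomal protein genes do (0.23).

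The share of mitochondrially encoded transcripts was 8.58% in WT library 1, 5.37% in mutant library 2 and 7.19% in mutant library 1, against 3.04% to 3.99% in the other 6 libraries. Mutant library 2 also had the highest summed levels of skeletal muscle markers (2044 cpm, against 61.0 to 871 cpm elsewhere), red cell markers (3946 cpm, against 341 to 2199 cpm) and fibroblast markers (4882 cpm, against 2552 to 4507 cpm), and the lowest of sensory neuron markers (4847 cpm). WT library 1 had the highest sum of sensory neuron markers (7231 cpm), with Prph, Tubb3 and Avil at their highest there, while Scn9a and Isl1 (714 and 226 cpm) were lower than in both other WT libraries (761 to 810 and 272 to 283 cpm). Dividing cell markers summed to 325 cpm in mutant library 2, within the range of the other libraries (214 to 331 cpm). The part of RNA length, mitochondrial share and cell makeup in the steps was not tested. In bulk tissue, fewer cells of a type and less RNA per cell cannot be told apart.

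The comparison of the mutant with WT asks what deletion of Meis2 together with the Cre allele changed. Of the 74 genes, 52 had a positive and 22 a negative log2 fold change, with a median of 0.055. Over all 13200 tested genes 46.2% were positive and the median was -0.0094. No ribosomal protein gene met the threshold that the study used, which asks for an unadjusted p under 0.05 at 1.2-fold or more and is called the criterion here, and none had an unadjusted p under 0.05 in edgeR's quasi-likelihood test. All genes together met them in 0.318% and 0.371% of cases. DESeq2 and limma voom gave 0 genes meeting the criterion as well, though Rps21 had an unadjusted p of 0.0385 in DESeq2 at a log2 fold change of 0.26, just under 1.2-fold, and the smallest adjusted p was 0.9999 in edgeR with Benjamini-Hochberg adjustment over all genes. All 3 mutant libraries lay above all WT libraries for 1 gene, Rpl6, against 1.02% of all genes.

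The highest log2 fold changes relative to WT were those of Rps21 (0.24, standard error 0.106, unadjusted p = 0.0518 in edgeR), Rpl27 (0.22, standard error 0.126) and Rpl15 (0.21, standard error 0.14). With 1 library left out, they ran from 0.19 to 0.33 for Rps21, 0.14 to 0.34 for Rpl27 and 0.083 to 0.32 for Rpl15. Without mutant library 3, Rpl27 and Rps21 met the criterion, where 0.364% of all genes did. The lowest were those of Rpl36 (-0.19, standard error 0.321), Rpl29 (-0.17, standard error 0.237) and Rpl23a (-0.16, standard error 0.293). These last values carry WT library 1. Rpl36 had 158, 67.3 and 70.6 cpm in WT, 83.5, 83.2 and 70.7 cpm in Isl1Cre/+ and 89.98, 94.8 and 74.8 cpm in mutant libraries. The library with 158 cpm stood alone, and without it the mutant libraries were all above WT.

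The direction of the whole set relative to WT also depended on single libraries. Without WT library 1, 74 of 74 genes were positive with a median of 0.20 (all genes 51.6%, median 0.0042), and 5 met the criterion (Rpl36, Rpl26, Rps19, Rpl21 and Rpl8, log2 fold changes 0.27 to 0.33), where 1% of all genes did. Without mutant library 2, 30 were positive and 44 negative, with a median of -0.020. Without both, in an alternative chosen after seeing the data, 72 were positive with a median of 0.11 (all genes 49.7%), and 1, Rpl36, met the criterion (log2 fold change 0.26, unadjusted p = 0.0347 in edgeR), where 1.38% of all genes did.

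The comparison of the mutant with Isl1Cre/+ asks about Meis2 in embryos that share the Cre allele. It uses the same mutant libraries as the comparison with WT. Of the 74 genes, 73 had a positive log2 fold change, with a median of 0.11, while 50.2% of all genes were positive, with a median of 0.00029. The shift was small for each gene, with a median standard error of 0.1. Summed red cell markers were higher in each mutant library (1204, 3946 and 2199 cpm) than in each Isl1Cre/+ library (432, 976 and 341 cpm), and the part of this in the shift was not tested. In edgeR 2 genes met the criterion, Rps21 and Rpl35, where 1.67% of all genes did. An unadjusted p under 0.05 was reached by 5, these and Rpsa, Rpl15 and Rpl6, where 2.73% of all genes did. No adjusted p was under 0.05, and the smallest was 0.9997 in edgeR with Benjamini-Hochberg adjustment. DESeq2 gave 3 genes meeting the criterion, Rps14 beside those 2, and limma voom gave 2, where 1.79% and 1.17% of all genes did. All 3 mutant libraries lay above all Isl1Cre/+ libraries for 2 genes, Rps21 and Rpl6, against 3.45% of all genes.

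**Figure D4:**
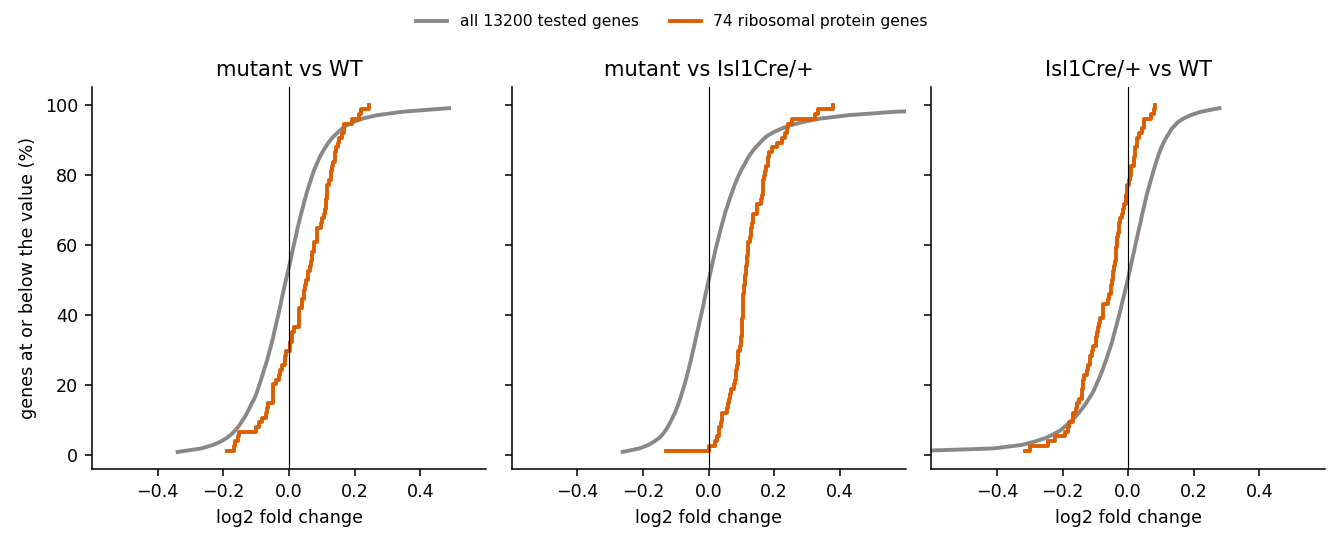
Share of genes with a log2 fold change at or below the value on the horizontal axis, for the 74 ribosomal protein genes (orange) and for all 13200 tested genes (grey, their percentiles from 1 to 99), in each comparison. The orange curve is shifted to the right for mutant vs Isl1Cre/+ (73 of 74 genes positive), and to the left for Isl1Cre/+ vs WT (17 of 74 positive).

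Rps21 (ENSMUSG00000039001.12, chromosome 2 of GRCm38, 180257377 to 180258445, plus strand) encodes a protein of the small subunit. It had 109, 117 and 122 cpm in WT, 106, 109 and 113 cpm in Isl1Cre/+ and 141, 151 and 121 cpm in mutant libraries. Each mutant library was above each Isl1Cre/+ library, while mutant library 3 fell within the range of WT. The log2 fold change relative to Isl1Cre/+ was 0.33 (1.26-fold, standard error 0.0866, unadjusted p = 0.00572 in edgeR's quasi-likelihood test), and it met the criterion in 16 of 16 alternatives, at log2 fold changes of 0.27 without mutant library 2 to 0.42 without mutant library 3. Unlike 69 of the 74 genes, it was not highest of its genotype in WT library 1, which lay below the mean of the other WT libraries (-0.13 on the log2 scale). Its adjusted p of 0.9997 in edgeR did not pass the threshold.

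Rpl35 (chromosome 2, 39001580 to 39005624, minus strand), a protein of the large subunit near the exit of the peptide tunnel, had 118, 110 and 111 cpm in WT, 83.6, 106 and 111 cpm in Isl1Cre/+ and 137, 132 and 107 cpm in mutant libraries. The groups overlapped, and Isl1Cre/+ library 1 was the lowest of the 9. The log2 fold change relative to Isl1Cre/+ was 0.32 (standard error 0.131, unadjusted p = 0.0413 in edgeR). Without Isl1Cre/+ library 1 it was 0.21 with an unadjusted p of 0.118 in edgeR, and it met the criterion in 11 of 16 alternatives, also failing it with a replicate block and without Isl1Cre/+ library 2, mutant library 1 or mutant library 2. Exons of Wdr38 and Arpc5l on the opposite strand cover 66.2% of its exonic bases, so without a stated strand setting its reads cannot be told apart from theirs.

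Rpl6, a protein of the large subunit, was named after its values were seen. It had 144, 140 and 138 cpm in WT, 139, 140 and 141 cpm in Isl1Cre/+ and 149, 173 and 150 cpm in mutant libraries. Each mutant library was above each of the 6 control libraries, and the control libraries were close together. The log2 fold change was 0.17 relative to Isl1Cre/+ (standard error 0.0703, unadjusted p = 0.0438 in edgeR) and 0.16 relative to WT (standard error 0.0894, unadjusted p = 0.111 in edgeR), below the fold change of 1.2 in both.

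Rps14, a protein of the small subunit platform, had the highest log2 fold change relative to Isl1Cre/+ (0.38, standard error 0.172, unadjusted p = 0.0619 in edgeR). It had 220.5, 121 and 131 cpm in WT, 125, 138 and 131 cpm in Isl1Cre/+ and 155, 223 and 134 cpm in mutant libraries. Here too WT library 1 and mutant library 2 were high and the groups overlapped. Without mutant library 2 the log2 fold change was 0.15. Rpsa, the protein of the small subunit also known as the laminin receptor, had 281, 216 and 231 cpm in WT, 204, 230.5 and 207 cpm in Isl1Cre/+ and 255, 274 and 228 cpm in mutant libraries (log2 fold change 0.24 relative to Isl1Cre/+, standard error 0.0863, unadjusted p = 0.0263 in edgeR). Its lowest mutant library lay below its highest Isl1Cre/+ library. Rpl15, whose log2 fold change relative to Isl1Cre/+ was 0.25 (standard error 0.098, unadjusted p = 0.0347 in edgeR), had 95.2 to 118 cpm in Isl1Cre/+ and 116 to 138 cpm in mutant libraries, with 1 mutant library inside the Isl1Cre/+ range.

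**Figure D5:**
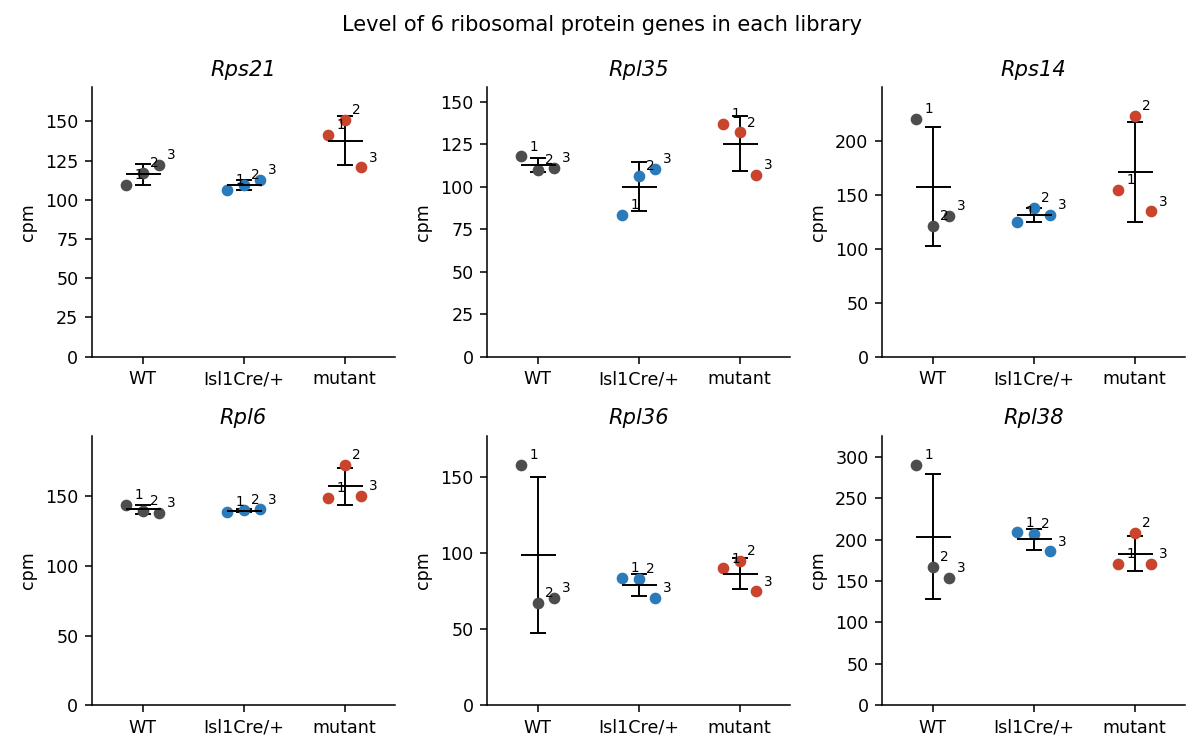
Level in cpm of 6 ribosomal protein genes by genotype, with each of the 3 libraries as a numbered point and the mean ± SD as a bar. Rps21 and Rpl6 have all mutant libraries above all Isl1Cre/+ libraries, while WT library 1 sets the WT range of Rps14, Rpl36 and Rpl38.

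Rpl38, known for a role in patterning of the axial skeleton, was the 1 gene with a negative log2 fold change relative to Isl1Cre/+ (-0.13, standard error 0.0954, unadjusted p = 0.212 in edgeR). With 1 library left out this value ran from -0.23 without mutant library 2 to -0.081 without mutant library 3. Rpl38 had 290, 167 and 154 cpm in WT, 209, 207 and 186 cpm in Isl1Cre/+ and 171, 208 and 170 cpm in mutant libraries, so that the groups overlapped. Rpl27a (0.0020, standard error 0.102) and Rpl4 (0.021, standard error 0.0977) had the next lowest values, with means of 155 ± 8.82 and 155 ± 21.6 cpm for Rpl27a and 713 ± 38.3 and 723 ± 83.1 cpm for Rpl4 in Isl1Cre/+ and mutant libraries (SD, n = 3 each).

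Mutant library 2 carried much of the common shift. Without it, 49 of 74 genes were positive relative to Isl1Cre/+ with a median of 0.033, beside 49.8% and -0.00061 for all genes, and 1 gene, Rps21, met the criterion, where 1.64% of all genes did. Without mutant library 3, the median was 0.19 and 11 genes met it (2.46% of all genes), Rps21, Rpl35, Rps14, Rps23 and Rps27 among them. Other tested genes of up to 1 kb, 1 to 2 kb, 2 to 4 kb and over 4 kb of exons had median log2 fold changes of 0.093, 0.057, 0.018 and -0.018 in this comparison, and 75.6% of the shortest class were positive. The part of gene length in the shift was not tested. The 40 tested ribosomal protein genes with a run of at least 10 pyrimidines within 50 bases of the annotated start had a median of 0.10. Those with a shorter run (14 genes) had 0.14 and those without a sequence (20 genes) 0.11. Runs that lie before the start, outside the mRNA, were included.

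The comparison of Isl1Cre/+ with WT asks what the Cre allele changed by itself, and shares its libraries with the other comparisons. Of the 74 genes, 57 had a negative and 17 a positive log2 fold change, with a median of -0.048, where 49.3% of all genes were positive. In edgeR 0 met the criterion and 0 had an unadjusted p under 0.05, where 1.40% and 1.79% of all genes did. DESeq2 and limma voom gave 0 meeting the criterion too. Summed endothelial markers were higher in each Isl1Cre/+ library (281 to 379 cpm) than in each WT library (256 to 269 cpm). Taken singly, Kdr and Pecam1 were too, while Cdh5, Cldn5 and Tie1 overlapped between these genotypes. The part of endothelial markers in the values of this comparison was not tested. All 3 Isl1Cre/+ libraries lay above all WT libraries for 1 gene, Rpl30, against 2.95% of all genes. Rpl30 had 87.8, 82.8 and 86.3 cpm in WT and 89.5, 91.3 and 89.0 cpm in Isl1Cre/+ libraries (log2 fold change 0.082, standard error 0.0615, unadjusted p = 0.224 in edgeR).

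The lowest values were those of Rpl23a (-0.31, standard error 0.262), Rpl36 (-0.30, standard error 0.305) and Rps14 (-0.24, standard error 0.207), and the highest, after Rpl30, those of Rps29 (0.077, standard error 0.122) and Rpl37a (0.071, standard error 0.106). None exceeded 2 standard errors. Without WT library 1 the direction turned, with 66 genes positive and a median of 0.058, and Rpl38 alone met the criterion (log2 fold change 0.31, unadjusted p = 0.00314 in edgeR), where 2.58% of all genes did. Other genes of up to 1 kb of exons had a median of -0.13 in this comparison with WT library 1 included. Those of 1 to 2 kb, 2 to 4 kb and over 4 kb had medians of -0.054, -0.021 and 0.014.

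Both subunits had medians of the same sign in each comparison. Median log2 fold changes of small and large subunit genes were 0.085 and 0.030 for the mutant relative to WT, 0.12 and 0.10 relative to Isl1Cre/+, and -0.038 and -0.053 for Isl1Cre/+ relative to WT. In the 9 libraries, small subunit genes took 0.510% to 0.672% and large subunit genes 0.759% to 0.970% of all counts. WT library 1 was highest for 27 large and 11 small subunit genes, and mutant library 2 for 16 large and 18 small ones, a difference that was not tested.

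The 4 ribosomal protein genes on chromosome X overlapped between genotypes. Rps4x, whose counterpart on the human Y chromosome is lacking in the mouse, was the steadiest in WT, with 283, 287 and 281 cpm, 289, 305 and 280 cpm in Isl1Cre/+ and 282, 361 and 296 cpm in mutant libraries. Rpl10 had means of 195 ± 13.8, 201 ± 9.07 and 212 ± 20.1 cpm, and Rpl39 of 94.97 ± 6.31, 94.8 ± 5.04 and 108 ± 20.8 cpm (SD, n = 3 each, in WT, Isl1Cre/+ and mutant libraries). Rpl36a had 227, 131 and 126 cpm in WT, 141, 147 and 131 cpm in Isl1Cre/+ and 159, 169 and 129 cpm in mutant libraries, and followed the profile with a high WT library 1. Their log2 fold changes ran from -0.081 to 0.19 relative to WT and from 0.082 to 0.19 relative to Isl1Cre/+ for the mutant, with unadjusted p between 0.176 and 0.741 in edgeR. Of the other genes of the chromosome that belong to the lists below, Eif2s3x met the criterion in Isl1Cre/+ relative to WT (log2 fold change 0.48, unadjusted p = 0.0354 in edgeR). Its Y-linked counterpart Eif2s3y was counted in WT libraries 1 and 2 and mutant library 1 (33.4, 40.2 and 41.8 cpm). It had 0 counts in the other 6 libraries, among them all Isl1Cre/+ libraries, so Y-linked reads differ between libraries and are uneven between the genotypes. The part of this in the values above was not tested.

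Fau, Rps3a1 and Rack1, constituents of the ribosome that the name rule misses, overlapped between genotypes as well. Rack1, a scaffold for kinases on the small subunit, had 371, 300 and 314 cpm in WT, 340, 347 and 303 cpm in Isl1Cre/+ and 295, 459 and 340 cpm in mutant libraries. Rps3a1 had 224, 213 and 216 cpm in WT, 208, 221 and 205 cpm in Isl1Cre/+ and 219, 277 and 218 cpm in mutant libraries. In both, mutant library 2 was the highest of the 9. Fau, which encodes a fusion of a ubiquitin-like protein with a ribosomal protein, had 139, 96.6 and 96.7 cpm in WT, 111, 106 and 98.2 cpm in Isl1Cre/+ and 103, 130 and 102 cpm in mutant libraries. None of these 3 met the criterion or had an unadjusted p under 0.05 in any comparison in edgeR, and the log2 fold changes of Fau, Rack1 and Rps3a1 relative to Isl1Cre/+ were 0.084, 0.14 and 0.17 for the mutant.

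Other genes of translation were counted for comparison. Of the 78 tested mitochondrial ribosomal protein genes, 62 had a positive log2 fold change in the mutant relative to Isl1Cre/+ with a median of 0.062, and 62 a negative one in Isl1Cre/+ relative to WT with a median of -0.051. Relative to WT, 36 were positive in the mutant (median -0.011). Of the 78, 1 met the criterion relative to Isl1Cre/+, where 1.67% of all genes did, Mrps28 (log2 fold change 0.35, standard error 0.103, unadjusted p = 0.0101 in edgeR). Of 49 genes of ribosome assembly, 21 were positive in the mutant relative to Isl1Cre/+ with a median of -0.019, and 11 relative to WT with a median of -0.077. One of them met the criterion, Rrs1, which fell by 0.34 on the log2 scale from WT to Isl1Cre/+ (standard error 0.106, unadjusted p = 0.0136 in edgeR), with 24.8, 19.1 and 19.9 cpm in WT and 16.8, 16.8 and 16.4 cpm in Isl1Cre/+ libraries, where 1.40% of all genes met the criterion.

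The factors that act on the ribosome had medians closer to 0, a difference that was not tested. Elongation factors (7 genes) had a median log2 fold change of 0.0031 and initiation factors (53 tested genes) of 0.0023 in the mutant relative to Isl1Cre/+, and 0 genes of either list met the criterion there in edgeR, with 1 initiation factor at an unadjusted p under 0.05, beside 2.73% of all genes. In Isl1Cre/+ relative to WT the 2 of 53 initiation factors that met it, beside 1.40% of all genes, were Eif2s3x and Eif2s3y. The 7 other mRNAs known for an oligopyrimidine start, such as Pabpc1 and Tpt1, had a median of -0.022, with 3 positive, in the mutant relative to Isl1Cre/+. Of 18 tested regulators of translation and of ribosome production, among them the mTOR complex and Myc family, 5 were positive there with a median of -0.040, and in edgeR 0 met the criterion in any comparison, with 1, Akt1s1, at an unadjusted p under 0.05 in the mutant relative to Isl1Cre/+, again beside 2.73% of all genes. Of the 6 tested paralogs of ribosomal protein genes, 5 were positive (median 0.093) and 0 met it, while 1, Rps27l, had an unadjusted p under 0.05, beside the same 2.73% of all genes (log2 fold change 0.26, unadjusted p = 0.0254 in edgeR).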

How the data were processed

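RNA of 9 DRG libraries was analysed, 3 per genotype, grouped by GEO's genotype labels. As described by the study, poly(A) RNA was made into libraries with unique molecular identifiers, sequenced in single-end reads of 84 bases and, after alignment with STAR 2.7.10 to mm10 (GRCm38) and removal of duplicates by identifier, counted per gene with HTSeq 0.6. The deposited values are these raw counts of uniquely mapped reads. The annotation release and strand setting of the counting were not given in the sources used here. The table also holds the authors' limma results (fold changes, mean expression, test statistics and p-values), which were not used.

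Counts were fitted with edgeR 4.0.16 in R 4.3.3, by TMM scaling and the quasi-likelihood test (two-sided, Benjamini-Hochberg over 13200 genes reaching 100 counts in 1 library or more), each pair of genotypes alone. As 3 libraries against 3 cannot reach an exact permutation p under 0.1, p-values rest on the variance edgeR shares across genes. The labels do not tie libraries to animals, so p-values measure the spread between these libraries. Y-linked reads differ within the WT and within the mutant libraries, so neither set repeats a single sample. For genes of these levels that spread, and not counting error, limits the precision. A cpm value here is a count scaled to a common library size by TMM over 9 libraries, and log2 values use a pseudocount of 0.5 cpm. Positions, lengths and overlaps come from GENCODE release M21 on GRCm38 (55154 of 55247 identifiers matched, 54855 with the same version), the mRNA being the shortest principal coding transcript, and start sequences from RefSeq on GRCm38.p6. No protein sequences were used here.

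The genes, gene lists and tests were chosen with earlier results of these data known. Named genes are those meeting the criterion in a comparison, the 3 highest and 3 lowest log2 fold changes of each, the 5 highest and 5 lowest levels per kb, Rps21, Rpsa, the stalk genes, those on chromosome X and those under the minimum, with others marked as named after their values were seen. Alternatives were other scalings, filters and tools (DESeq2 1.42.0, limma 3.58.1 voom), a replicate block, each library left out, other thresholds and, added after seeing the data, WT library 1 and mutant library 2 left out together. The fit was tested on simulated data. Values of some genes are not reported here.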

Additional observations from a re-analysis of the deposited data

How the results depend on the processing

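Relative to WT, Rps21 had an unadjusted p of 0.0219 with all 3 genotypes in 1 edgeR fit and 0.0497 with a filter of 100 counts in every library, below 1.2-fold in both. It met the criterion relative to Isl1Cre/+ in all 16 alternative fits, the replicate block among them (log2 fold change 0.33). In fits that each left out 1 library, the number of genes meeting the criterion ranged from 0 to 5 for mutant vs WT, 1 to 11 for mutant vs Isl1Cre/+ and 0 to 1 for Isl1Cre/+ vs WT, beside 0.303% to 1%, 1.27% to 3.08% and 0.773% to 2.58% of all genes. The number with a positive log2 fold change ranged from 30 to 74, 49 to 73 and 11 to 66, beside 45.8% to 51.6%, 48.6% to 51.2% and 48.0% to 50.6% of all genes. For mutant vs WT, 1 gene met the criterion without a filter on low counts (Rps21, beside 1.25% of all genes) and 1 without WT library 1 and mutant library 2 (Rpl36, beside 1.38%). For mutant vs Isl1Cre/+, 5 did with no fold change requirement (beside 2.73% of all genes), 0 at 1.5-fold or more and 0 at an adjusted p under 0.05. With scaling to library size alone, 27 genes were positive for Isl1Cre/+ vs WT, when 60.1% of all genes were. Scalings moved the median of all genes by under 0.03.

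Some log2 fold changes turned. With 1 library left out, those of Rpl36, Rpl29 and Rpl23a for mutant vs WT ran from -0.40 to 0.33, -0.32 to 0.19 and -0.35 to 0.27, and without WT library 1 and mutant library 2 they were 0.26, 0.15 and 0.21. For mutant vs Isl1Cre/+, Rpl27a ran from -0.11 to 0.066 and was -0.022 with library size only, -0.016 without a filter, -0.0057 with limma voom and -0.0053 with the replicate block, and Rpl4 ran from -0.071 to 0.074 and was -0.0029 with library size only. For Isl1Cre/+ vs WT, Rpl23a, Rpl36, Rps14 and Rps29 ran from -0.49 to 0.090, -0.50 to 0.19, -0.39 to 0.051 and -0.034 to 0.17. Fewer libraries enter these fits. The cause of the other turns was not tested.

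The labels do not say whether replicate numbers pair the libraries. Deviations of same-numbered libraries correlated between -0.57 and 0.39 across genes. Such correlations cannot decide it, as they do not show whether libraries share a litter or a preparation. With the number as a block, 0, 2 and 0 genes met the criterion in the 3 comparisons, beside 0.235%, 1.34% and 1.79% of all genes, Rps14 taking the place of Rpl35 for mutant vs Isl1Cre/+ (log2 fold changes 0.35 and 0.33).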
